A study of Mus musculus with 4 samples.

Results

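Cldn16-dominant thick ascending limb cells were examined in single-cell libraries of mouse renal cortex. Members were chosen by measured values, the UMI counts of 5 genes. A cell was counted as a member when it had at least 1000 detected genes and at most 50% of its unique molecular identifiers (UMIs, counts of single transcripts) from mitochondrial genes, when Slc12a1 and Umod together made up at least 40 and Slc12a3 less than 3 of 10000 UMIs, and when it held at least 2 Cldn16 UMIs and more Cldn16 than Cldn10 UMIs. Of 32407 cells that passed the filters, out of 48085 barcodes, 5066 were thick ascending limb cells and 783 were members. The mirrored rule, at least 2 Cldn10 UMIs and more Cldn10 than Cldn16, defined the Cldn10-dominant cells with which they are compared. Distal convoluted tubule cells had at least 10 Slc12a3 UMIs per 10000 and fewer than 40 of Slc12a1 and Umod.

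Each of the 4 libraries was made from cortex of 2 or 3 male mice pooled before digestion, so that 1 library stands for each condition. Young (6 weeks) and aged (24 months) Tfebfl/fl mice carried floxed Tfeb alleles without Cre. Young and aged Tfebfl/fl KAP mice carried the same alleles and Cre recombinase under the kidney androgen-regulated protein promoter, which is known to be active in the S3 part of proximal tubules and not in the thick ascending limb. The order young Tfebfl/fl, young Tfebfl/fl KAP, aged Tfebfl/fl and aged Tfebfl/fl KAP is kept for every list of 4 values. The libraries held 194747936, 155327520, 125729484 and 135792884 UMIs in total.

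The thick ascending limb reabsorbs sodium, potassium and chloride through the cotransporter encoded by Slc12a1, secretes uromodulin (Umod) and epidermal growth factor (Egf), and passes cations between its cells. Claudins at the tight junction set which ion takes that route. In this segment claudin 10 forms a sodium pore, while claudin 16 together with claudin 19 is needed for calcium and magnesium reabsorption. Claudin 14 is known as a brake on that reabsorption and acts downstream of the calcium-sensing receptor. In mouse kidney claudin 10 and claudin 16 are known to mark separate cells of this segment.

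Every member held UMIs of Slc12a1 and of Umod, and 99.3 to 100% held UMIs of Egf, across the libraries. In proximal tubule cells of the same libraries (at least 2 Lrp2 UMIs per 10000 and 2 Slc34a1 UMIs), which should lack these transcripts, Slc12a1 was counted in 17.1, 5.29, 10.2 and 3.13% of cells. After every cell was thinned to 3000 UMIs the share with Slc12a1 was 99.5 to 100% in members and 4.59 to 6.69% in distal convoluted tubule cells. Slc12a1 and Umod chose the members and limited the proximal and distal convoluted tubule cells, so these shares are a description. The limit took out cells rich in these genes, which can lower the shares of other transcripts of the segment there too. Egf lies outside the rule, and its UMIs were found in 18.7, 3.55, 6.27 and 3.58% of proximal tubule cells but also in 82.7 to 88.4% of distal convoluted tubule cells, so that it sets members apart from the former and much less from the latter.

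The genes behind the rule are given as a description. Cldn16 was at 315, 316, 298 and 324 CPM (the count of a gene in the summed UMIs of members, scaled to a common total), and Cldn10 at 55.4, 49.0, 42.2 and 28.0 CPM. Slc12a1 was at 6022, 5534, 7814 and 7657 CPM and Umod at 16423, 19697, 19959 and 18438 CPM. Cldn16 was nearly level across the libraries, Slc12a1 was higher in both aged libraries than in both young ones, and Cldn10 was lowest in the aged Tfebfl/fl KAP library.

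The promoters of the claudins that part the populations, and of the gene next to Cldn16, are shown because Cldn16 and its neighbour Tmem207 were high in the same cells. On mouse chromosome 16 (mm10), Cldn16 lies on the plus strand at chr16:26463135-26482765 and Tmem207 on the minus strand at chr16:26503793-26526771, so that their 3′ ends face each other across 21027 bases. Cldn10 lies on the plus strand at chr14:118787871-118874525 and has 2 annotated starts, whose transcripts cannot be told apart by counts of 3′ ends. The windows run from 250 bases before to 50 bases after a start (RefSeq, GRCm38.p6, transcript strand), with capitals on matches to GTTAAT (a hepatocyte nuclear factor 1 half-site), ACANNTGT (an Iroquois factor site) or CACGTG (the E-box of TFEB and its relatives) on either strand. In 32851 windows of 300 bases, 7.10, 7.38 and 7.15% held the respective letters, and a match is a description only.
Cldn16, chr16:26462885-26463184, plus strand: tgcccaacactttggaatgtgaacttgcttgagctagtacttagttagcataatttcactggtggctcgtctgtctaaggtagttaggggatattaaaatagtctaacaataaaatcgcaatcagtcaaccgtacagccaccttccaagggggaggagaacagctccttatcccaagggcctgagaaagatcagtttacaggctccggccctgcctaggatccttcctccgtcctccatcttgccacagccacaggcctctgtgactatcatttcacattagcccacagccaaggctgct
Tmem207, chr16:26526722-26527021, minus strand: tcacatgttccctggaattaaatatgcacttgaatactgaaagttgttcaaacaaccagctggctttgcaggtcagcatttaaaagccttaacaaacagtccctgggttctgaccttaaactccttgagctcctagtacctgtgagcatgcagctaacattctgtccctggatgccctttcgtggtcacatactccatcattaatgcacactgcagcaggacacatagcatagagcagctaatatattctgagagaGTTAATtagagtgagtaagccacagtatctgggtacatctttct
Cldn10, first start, chr14:118787621-118787920, plus strand: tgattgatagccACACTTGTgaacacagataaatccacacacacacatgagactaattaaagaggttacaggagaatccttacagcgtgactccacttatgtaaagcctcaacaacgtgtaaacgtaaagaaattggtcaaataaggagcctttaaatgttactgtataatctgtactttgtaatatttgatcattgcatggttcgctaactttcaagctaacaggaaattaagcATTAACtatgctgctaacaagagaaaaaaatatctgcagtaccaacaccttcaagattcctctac
The Cldn16 window held none of the 3 motifs. The Tmem207 window held 1 match to GTTAAT, and the window of the first Cldn10 start held 1 match to it and 1 to ACANNTGT. That of the second start (chr14:118854700-118854999) held none of the 3.

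The rule drew its line through sparse counts. Members held a median of 3, 4, 4 and 4 Cldn16 UMIs, and 57, 52, 36 and 39 of them sat at the minimum of 2. Just outside, 52, 42, 17 and 32 thick ascending limb cells had 1 Cldn16 UMI and no Cldn10 UMI, and 21, 12, 8 and 11 cells had equal counts of at least 2. No Cldn10 UMI was found in 60.3, 67.9, 60.7 and 74.3% of members, and no Cldn16 UMI in 53.8, 57.9, 42.7 and 36.7% of Cldn10-dominant cells.

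**Figure D1:**
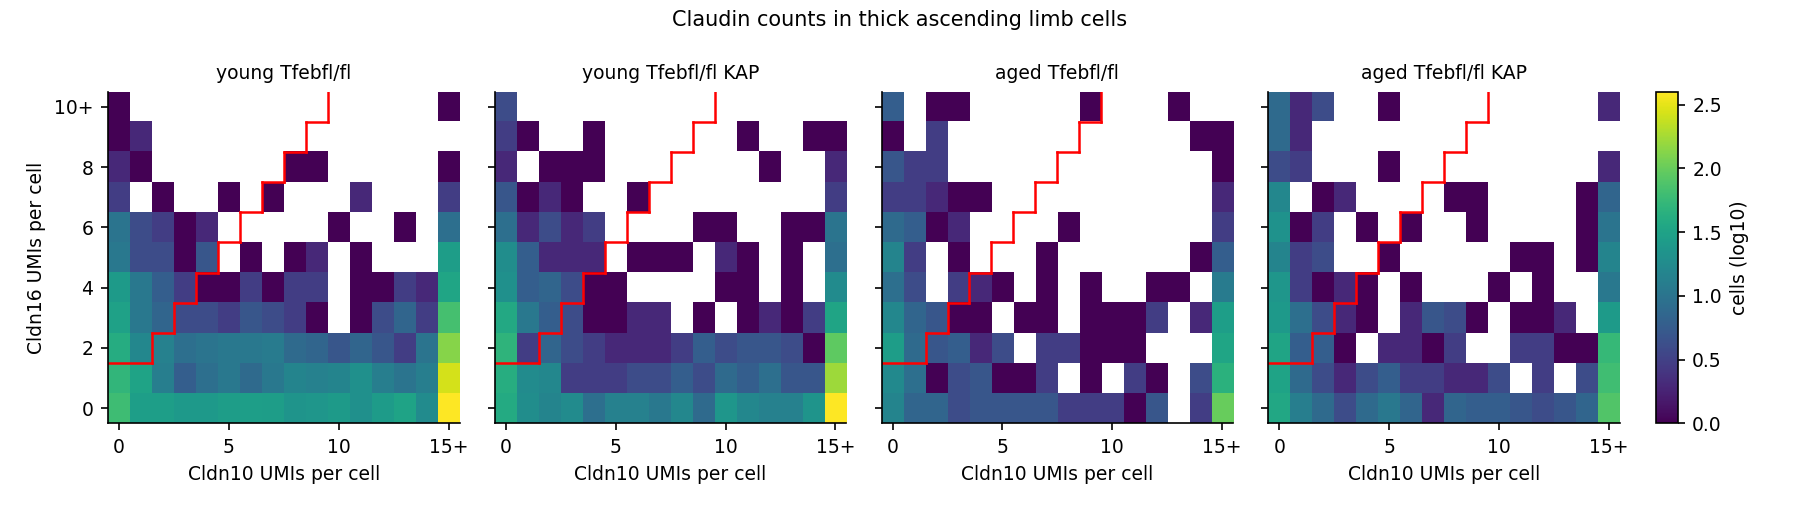
Cldn16 UMIs (vertical axis) against Cldn10 UMIs (horizontal axis) in each thick ascending limb cell of the 4 libraries, with the number of cells as colour on a log10 scale; counts of 10 or more and 15 or more are pooled in the last row and column. Cells above the red line are the Cldn16-dominant ones, most of them in the columns at 0 and 1 Cldn10 UMIs.

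Members numbered 209, 218, 150 and 206. Their median depth was 12001, 12080.5, 15747.5 and 15195.5 UMIs, with 3117, 3245, 3716 and 3530 genes per cell at the median, so that members of the aged libraries were deeper. Mitochondrial genes gave 27.0, 25.9, 24.0 and 26.7% of UMIs at the median. Between pairs of libraries 233 barcode sequences recurred, none of them in 2 members.

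As a share of thick ascending limb cells, members made up 9.17% in the young Tfebfl/fl library (exact 95% binomial interval 8.02 to 10.4), 14.6% in young Tfebfl/fl KAP (12.8 to 16.5), 27.0% in aged Tfebfl/fl (23.4 to 30.9) and 28.0% in aged Tfebfl/fl KAP (24.7 to 31.3). The share was higher in both aged libraries than in both young ones, and their intervals, which cover counting error only, did not meet. Among all cells that passed the filters members made up 1.90, 2.57, 2.50 and 2.97%. Cldn10-dominant cells made up 17.0, 13.6, 5.83 and 6.22% of the same cells. Among all cells, the share of members was lowest in the young Tfebfl/fl library, whose upper bound of 2.17% lay under the lower bounds of 2.25 and 2.59% in the young and aged Tfebfl/fl KAP libraries. This gap was lost in cells thinned to 3000 UMIs (upper bound 1.89%, lower bounds 1.601 and 1.83%) and with at most 20% mitochondrial UMIs (1.46%, 1.29 and 1.23%). Cldn10-dominant cells were less frequent in both aged libraries. Distal convoluted tubule cells made up 8.13, 6.97, 11.2 and 12.6%. These shares were not tested, with a single library for each condition. Age, the dissection of the cortex and cell survival in digestion cannot be told apart. When cells were thinned to 3000 UMIs and a single claudin UMI was asked for, which takes the depth difference away, the share of thick ascending limb cells was 7.88, 10.8, 21.0 and 21.0%.

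**Figure D2:**
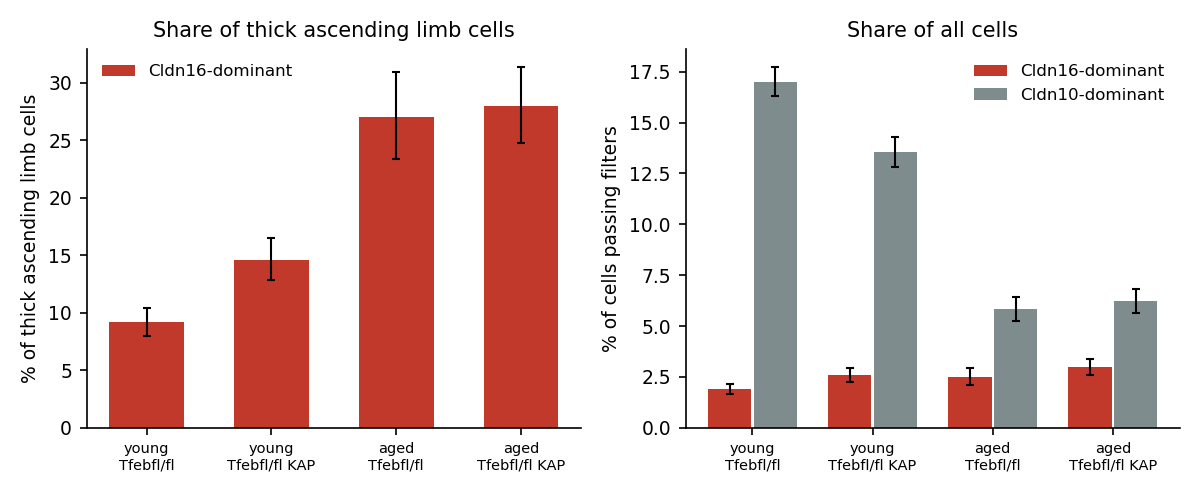
Left, Cldn16-dominant cells as a percent of thick ascending limb cells in each library; right, Cldn16-dominant (red) and Cldn10-dominant (grey) cells as a percent of all cells that passed the filters, with exact 95% binomial intervals as bars. The left share was 9.17 and 14.6% in the young and 27.0 and 28.0% in the aged libraries, and on the right the grey bars were at 17.0 and 13.6% in the young and 5.83 and 6.22% in the aged libraries.

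Members were first compared with Cldn10-dominant cells of the same libraries, to see which transcripts other than the claudins of the rule part the populations. Among the named genes, Foxq1, Irx3, Pth1r and Kcnj10 were higher in members of every library, and Irx1, Irx2 and the prostaglandin receptor Ptger3 were lower. Of 11607 genes tested, 1420 (12.2%) passed an adjusted p of 0.05, 555 (4.78%) higher and 865 (7.45%) lower in members, by edgeR's quasi-likelihood test on counts summed per library and population with the library as a block. The 4 libraries serve as 4 replicates of the difference between populations, and genes of the rule are left out of every count of genes that passed. Without the block 422 genes passed, and with cells of at most 20% mitochondrial UMIs 615.

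Among transcription factors, Foxq1, a forkhead factor, was at 341, 323, 391 and 368 CPM in members and at 49.5, 34.9, 83.3 and 83.2 CPM in Cldn10-dominant cells. No library of the former came near any of the latter. The log2 fold change was 2.62 ± 0.14 (SE, 4 libraries) with an adjusted p of 3.72e-08 in edgeR. This SE, as every ± below, was derived from edgeR's F statistic. Its dispersion borrows from other genes, so it is not the plain spread of the 4 differences. Foxq1 UMIs were found in 79.4 to 86.9% of members, against 1.09 to 3.86% of proximal tubule cells. Zfp503, a zinc finger corepressor, was at 411, 389, 548 and 573 CPM against 134, 96.1, 164 and 156 CPM, a log2 fold change of 1.84 ± 0.07.

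The Iroquois homeobox genes, which pattern the nephron along its length, went in opposite directions. Irx3 (chr8:91798511-91801654) was at 103, 77.4, 92.7 and 127 CPM in members and at 26.5, 20.9, 29.8 and 29.0 CPM in Cldn10-dominant cells (log2 fold change 1.94 ± 0.09, adjusted p = 9.86e-09 in edgeR). Irx1 (chr13:71958232-71963723) was at 22.3, 15.6, 13.8 and 19.8 CPM in members and at 152, 142, 210 and 224 CPM in Cldn10-dominant cells (-3.30 ± 0.13, adjusted p = 2.82e-09 in edgeR). Irx2 (chr13:72624430-72634196), the neighbour of Irx1 on chromosome 13, was at 21.5, 28.4, 40.9 and 28.7 CPM against 130, 117, 171 and 172 CPM (-2.28 ± 0.10). Groups did not overlap for any of the 3 genes. In distal convoluted tubule cells each of the 3 was low, and members exceeded those cells by 4.76, 3.15 and 4.80 on the log2 scale for Irx3, Irx1 and Irx2.

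Of the 14 measured tight junction genes outside the rule, 2 passed higher and 1 lower in members. Cldn14 was at 40.3, 35.9, 4.18 and 4.73 CPM in members and at 5.54, 3.95, 0.700 and 1.44 CPM in Cldn10-dominant cells, a log2 fold change of 2.88 ± 0.21 (adjusted p = 8.61e-07 in edgeR). The populations differed within every library, while the aged members lay at the level of the young Cldn10-dominant cells. Cldn8 also passed higher (0.24 ± 0.07), a call lost under most alternatives, and Cldn3 passed lower (-0.73 ± 0.11). Cldn19, the partner of claudin 16, was at 357, 328, 282 and 261 CPM in members and at 353, 316, 207 and 215 CPM in Cldn10-dominant cells, and its difference of 0.22 ± 0.07 did not pass (adjusted p = 0.0644 in edgeR).

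The gene lists for calcium and magnesium handling and for hormone, kinase and transcriptional control held several of the widest differences. Pth1r, the parathyroid hormone receptor, was at 544, 547, 532 and 536 CPM in members and at 122, 135, 218 and 169 CPM in Cldn10-dominant cells (log2 fold change 1.82 ± 0.11). Casr, the calcium-sensing receptor, was at 78.5, 86.7, 109 and 93.2 CPM against 45.0, 45.4, 70.6 and 67.4 CPM (0.74 ± 0.08). Pth1r was the steadiest of these across the libraries of members, and for both genes each member library lay above every Cldn10-dominant one. The vitamin D receptor gene Vdr (0.60 ± 0.09), Egf (0.50 ± 0.06) and the calcium pump gene Atp2b1 (0.30 ± 0.07, past the threshold in 10 of 14 alternatives) passed higher too. The channel kinase Trpm7 (-0.58 ± 0.07) and the sodium pump subunit Fxyd2 (-0.94 ± 0.18) passed lower, which makes 5 of 17 measured genes of calcium and magnesium handling higher and 2 lower. Fxyd2 was at 2296, 2102, 1904 and 2077 CPM in members and at 6171, 6330, 3145 and 2224 CPM in Cldn10-dominant cells, so that its gap was wide in the young libraries and small in the aged Tfebfl/fl KAP library.

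Ptger3 was at 24.7, 35.9, 35.1 and 39.7 CPM in members and at 449, 396, 344 and 388 CPM in Cldn10-dominant cells (log2 fold change -3.50 ± 0.11, adjusted p = 6.14e-10 in edgeR). Its UMIs were found in 19.6 to 30.7% of members and in 6.47 to 12.7% of distal convoluted tubule cells. Wnk1, a kinase that controls chloride cotransport, was at 1272, 935, 1182 and 1627 CPM against 310, 228, 450 and 598 CPM (1.76 ± 0.10). Its relative Wnk4 (-0.62 ± 0.06) and the downstream kinase Stk39 (-0.53 ± 0.08) passed lower in members. Counts of 3′ ends do not part the full-length from the kidney form of Wnk1. In all, 7 of 31 measured genes of hormone, kinase and transcriptional control, the Iroquois genes among them, were higher and 10 lower.

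Of 14 measured genes of salt transport, 4 passed higher and 4 lower. Kcnj10, a basolateral potassium channel, was at 156, 171, 172 and 177 CPM in members and at 61.9, 42.7, 55.9 and 62.0 CPM in Cldn10-dominant cells (1.64 ± 0.09). Its partner subunit Kcnj16 (0.51 ± 0.06) and the sodium-hydrogen exchanger Slc9a3 (0.36 ± 0.06, past the threshold in 11 of 14 alternatives) passed higher. Among those that went the other way were Fxyd2, the sodium-activated potassium channel Kcnt1 (-1.60 ± 0.15) and the apical potassium channel Kcnj1 (-0.18 ± 0.05), which was past the threshold in 7 of 14 alternatives. The sodium pump subunit gene Atp1b1 (-0.12 ± 0.04) did not pass, but did in 5 of 14 alternatives.

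Secreted and surface proteins of the segment were mostly higher in members, 12 of 21 measured genes against 4 lower. Car15, a carbonic anhydrase, was at 2104, 2182, 2437 and 2996 CPM against 436, 489, 706 and 1062 CPM (log2 fold change 1.96 ± 0.10). Tmem52b, a membrane protein, was at 518, 565, 684 and 718 CPM against 84.7, 62.9, 141 and 167 CPM (2.57 ± 0.13). Both were lower in each Cldn10-dominant library than in any member library, and within each population both were higher in the aged than in the young libraries. Wfdc2 (0.84 ± 0.06), Sfrp1, a secreted Wnt antagonist (0.71 ± 0.09), and Sostdc1 (0.59 ± 0.05) passed higher, and Thsd4 (-1.95 ± 0.20) and the chemokine Cxcl12 (-2.38 ± 0.37) lower. Tmem207, whose promoter is shown above, was at 175, 228, 238 and 259 CPM in members and at 118, 82.9, 75.1 and 64.3 CPM in Cldn10-dominant cells (1.44 ± 0.16).

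**Figure D3:**
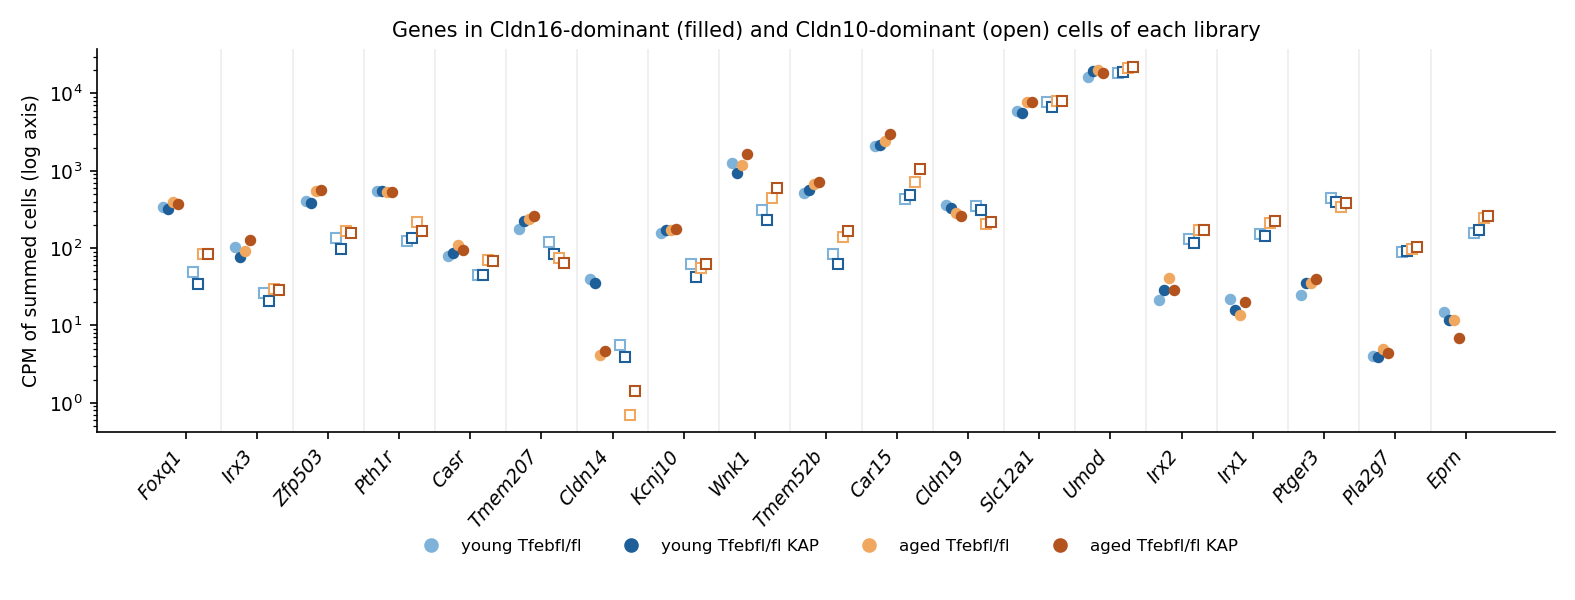
CPM (log axis) of 19 genes in Cldn16-dominant (filled circles) and Cldn10-dominant cells (open squares) of each library, coloured by library; the genes were picked after their values had been seen. Slc12a1 and Umod, which chose both populations, overlap, Foxq1 to Car15 are higher in the filled circles of each library, and Irx2 to Eprn are lower.

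The 12 highest and 12 lowest fold changes were ranked among called genes with a mean of at least 20 CPM over both populations. Other genes among the 12 highest were the calcium buffer Pvalb (2.36 ± 0.14), the collagen gene Col5a2 (2.24 ± 0.11), the phosphate cotransporter Slc34a2 (1.99 ± 0.13), the small GTPase Gem (1.92 ± 0.13) and the inositol trisphosphate receptor Itpr2 (1.76 ± 0.07). Pvalb is a transcript of the distal convoluted tubule, where it was at 2318, 2069, 1237 and 688 CPM, and it was at 223, 124, 56.4 and 19.5 CPM in members and 39.8, 20.1, 12.8 and 8.19 CPM in Cldn10-dominant cells. It was in the same order of libraries in all 3 populations, and the part of distal convoluted tubule RNA in the members' value was not tested.

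Among the 12 lowest, Pla2g7, a secreted lipase, was at 3.99, 3.91, 5.01 and 4.41 CPM in members and at 88.6, 92.7, 96.3 and 104 CPM in Cldn10-dominant cells (log2 fold change -4.44 ± 0.12, adjusted p = 7.07e-11 in edgeR). Eprn was at 14.7, 11.7, 11.7 and 6.93 CPM against 156, 174, 246 and 260 CPM (-4.19 ± 0.17). The adhesion gene Esam followed at -3.24 ± 0.11. For neither Pla2g7 nor Eprn did a member library come near a Cldn10-dominant one. Other genes of this group were Ptger3, Irx1, Cxcl12 and a set of proximal tubule transcripts, Kap, Miox, Akr1c21, Ass1 and Keg1.

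Proximal tubule markers moved as a whole with this comparison. The rule sorted cells by their Cldn10 UMIs, and counts of 3′ ends do not show which Cldn10 transcript or cell these came from. Any Cldn10 UMIs from proximal tubule RNA would move a cell out of the members, so the rule itself may shape this difference, which was not tested. Of 20 such genes 18 passed lower in members, and their summed level was 599.7, 248, 882 and 356 CPM in members and 3006, 1544, 4543 and 1602 CPM in Cldn10-dominant cells. Kap, the most abundant of them, was at 139, 0, 275 and 125 CPM against 1833, 699, 2507 and 981 CPM. Most members of each library held a deposited entry of exactly 0 for Kap, as given with the genotype comparison below. Scrublet, a doublet caller, marked 13, 5, 7 and 4 members. When 99 members with over 5 UMIs per 10000 from proximal tubule or principal cell markers were left out, along with such Cldn10-dominant cells, 1238 genes passed, 530 higher and 708 lower. Ass1 and Keg1 then had fold changes near 0, and Kap stayed lower but did not pass there or with DESeq2. The filter chose cells by such markers, so these losses decide nothing about their source.

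The macula densa, a plaque of cells at the end of the thick ascending limb, has its own markers, and 7 of its 9 measured genes passed lower in members with none higher. Nos1, the neuronal nitric oxide synthase, was at 1.59, 0.355, 0 and 2.52 CPM in members and at 8.49, 6.29, 15.2 and 26.5 CPM in Cldn10-dominant cells (log2 fold change -3.57 ± 0.35). Pappa2 was at 2.79, 0, 0.418 and 1.89 CPM against 7.86, 8.75, 35.2 and 91.4 CPM (-4.80 ± 0.41). In Cldn10-dominant cells both genes were higher in the aged libraries, and members stayed near 0. Pappa2 UMIs were found in 0.854 to 4.01% of Cldn10-dominant cells, so that their mean rests on few cells.

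Other lists are given beside the share of all 11607 genes tested, of which 12.2% passed, 4.78% higher and 7.45% lower in members. Of 77 nuclear subunits of oxidative phosphorylation 8 were higher and 1 lower, and of 37 ribosomal proteins 8 were lower and none higher. Immediate early genes, transcripts induced rapidly by stimuli, were lower in members for 10 of 21 and higher for 1, Ier3 (1.09). Of 22 genes of metallothionein and oxidative stress 4 were higher and 8 lower, and of 22 genes of hypoxia and glycolysis 6 were higher and 4 lower. Of 41 lysosomal genes and targets of TFEB and its relatives 3 were higher and 8 lower, and no circadian clock gene of 16 passed. The medians of these 7 lists, in the order given, were 0.05, -0.10, -0.36, -0.15, 0.01, -0.12 and -0.21 on the log2 scale, against 0.01 over all genes tested.

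Against distal convoluted tubule cells, the next segment, the difference was broader, as 3771 of 12164 genes (31%) passed, 1787 (14.7%) higher and 1984 (16.3%) lower in members. Without TMM scaling the split was 2122 higher and 1542 lower. By the same limit of a mean of at least 20 CPM, Slc34a2 (log2 fold change 7.86 ± 0.24), Tmem207 (7.41 ± 0.23) and Car15 (6.11 ± 0.16) led the higher genes. They were at 0 to 41.7 CPM in distal convoluted tubule cells. Cldn19 was at 5.74, 8.15, 4.57 and 4.52 CPM there, 5.68 ± 0.11 lower than in members on the log2 scale. Kcnj10 (-0.24 ± 0.06), Tmem52b (-0.58 ± 0.08) and Wnk1 (-1.59 ± 0.10), which stood out in members against Cldn10-dominant cells, were lower in members than in distal convoluted tubule cells. Pth1r was higher than in either population (1.12 ± 0.07 against the distal convoluted tubule).

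To see how members with Cldn10 UMIs compare with the rest, members were split by their Cldn10 count, as a description. Those with 2 or more numbered 34, 40, 25 and 24 and were deeper, with medians of 14046.5, 16998.5, 18042 and 19458.5 UMIs. In them Foxq1 was at 299, 227, 335 and 340 CPM, against 344, 359, 376 and 379 CPM in members without Cldn10 UMIs. Irx1 was at 32.7, 28.6, 33.9 and 43.6 CPM against 20.9, 11.3, 11.4 and 15.2 CPM, and Ptger3 at 39.7, 55.7, 47.5 and 65.3 CPM against 18.9, 31.0, 32.8 and 29.0 CPM. In these genes the members with more Cldn10 UMIs lay nearer to the Cldn10-dominant cells. Tmem207, Kcnj10 and Cldn14 did not differ the same way in every library. Tmem207 was at 238, 282, 258 and 219.96 CPM in them against 163, 204, 228 and 267 CPM, Kcnj10 at 156, 142, 174 and 231 CPM against 153, 169, 164 and 168 CPM, and Cldn14 at 79.3, 31.6, 2.26 and 0 CPM against 37.8, 32.7, 0.714 and 4.33 CPM. Car15 was at 1393, 1186, 2030 and 2596 CPM in them against 2376, 2611, 2456 and 3141 CPM, a wider gap in the young than in the aged libraries.

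The spread from cell to cell is given for genes outside the rule. The coefficient of variation of Egf per 10000 UMIs over members was 0.52, 0.51, 0.40 and 0.50. For Car15 it was 1.03, 1.03, 0.81 and 0.69 and for Wnk1 0.85, 0.95, 0.82 and 0.81. The 10th percentile of Car15 over members was 0 in every library, although 76.1 to 88.0% of members held at least 1. Counting error falls with the level of a gene and depth differed between libraries, so these values are not set against each other in a test.

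Next, aged and young members were compared. Since the aged and young Tfebfl/fl libraries and the aged and young Tfebfl/fl KAP libraries share no sample, the age difference is seen in 2 separate pairs, and a gene is counted when it passed 2-fold the same way in both. Of 5465 genes with a mean of at least 20 CPM, 21 (0.384%) did so, 9 (0.165%) higher and 12 (0.22%) lower in aged members, and 3 (0.0549%) passed 2-fold in opposite ways. Over genes the log2 ratios of the pairs had a Pearson correlation of 0.339 and a Spearman correlation of 0.326 (5464 genes, not independent replicates), and 62.1% had the same sign. With 1 library per condition no test was run, although an additive fit of age and genotype over the 4 libraries would leave 1 residual degree of freedom. The intervals of log2 ratios below are exact for the counts of 2 libraries and cover counting error only.

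Cldn14 was lower in aged members, at 40.3, 35.9, 4.18 and 4.73 CPM, with log2 ratios of aged to young of -3.27 (-4.37 to -2.33) and -2.92 (-3.81 to -2.13). Cldn14 UMIs were found in 36 and 33 members of the young libraries and in 4 and 9 of the aged ones. Aged and young libraries were far apart and the genotypes alike at each age. The other claudins of the cation path differed less. Cldn19 was at 357, 328, 282 and 261 CPM, while Casr, upstream of claudin 14, was at 78.5, 86.7, 109 and 93.2 CPM. After thinning to 3000 UMIs, Cldn14 was found in 7.32, 6.64, 0.671 and 0.980% of members.

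Hoxa9, a homeobox gene of the posterior body, was at 50.2, 43.0, 6.68 and 10.1 CPM in members (-2.91 and -2.09), and Hoxc10 at 43.9, 36.2, 21.3 and 17.3 CPM (-1.04 and -1.06). Both aged values lay below both young values for each gene. The chaperone Cryab was at 186, 84.5, 33.8 and 30.2 CPM (-2.46 and -1.48) and Pvalb at 223, 124, 56.4 and 19.5 CPM (-1.98 and -2.66). The basement membrane collagen Col4a5 (-1.18 and -1.52), Dipk1b, the cell cycle gene Cks2 (-1.48 and -1.14), Klhdc8a, the protease Pappa and mt-Nd6 (-1.07 and -1.65), a subunit of complex I encoded by mitochondrial DNA, completed the genes that were lower, together with Npnt (-3.46 and -1.04). Npnt in the young Tfebfl/fl library rested on few cells, as 5 of them held 89.3% of its UMIs.

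Higher in aged members by the widest margin was Cd36, a fatty acid translocase, at 3.99, 6.04, 67.2 and 54.2 CPM, with log2 ratios of 4.08 (3.16 to 5.16) and 3.17 (2.44 to 3.98). Its UMIs were in 9 and 14 young and in 70 and 78 aged members. Pigr, the transporter of polymeric immunoglobulins, was at 11.6, 24.2, 90.6 and 57.3 CPM (2.97 and 1.25). The circadian repressor Nr1d2 was at 17.1, 11.4, 51.8 and 35.9 CPM (1.59 and 1.66). No aged value of these genes fell as low as a young one. The remaining genes were mt-Nd4l, another subunit of complex I (988, 1161, 2051 and 2494 CPM), Atp4a, Wbp1l, Zhx3, Zc3h6 and AC149090.1, with ratios between 1.05 and 1.41.

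**Figure D4:**
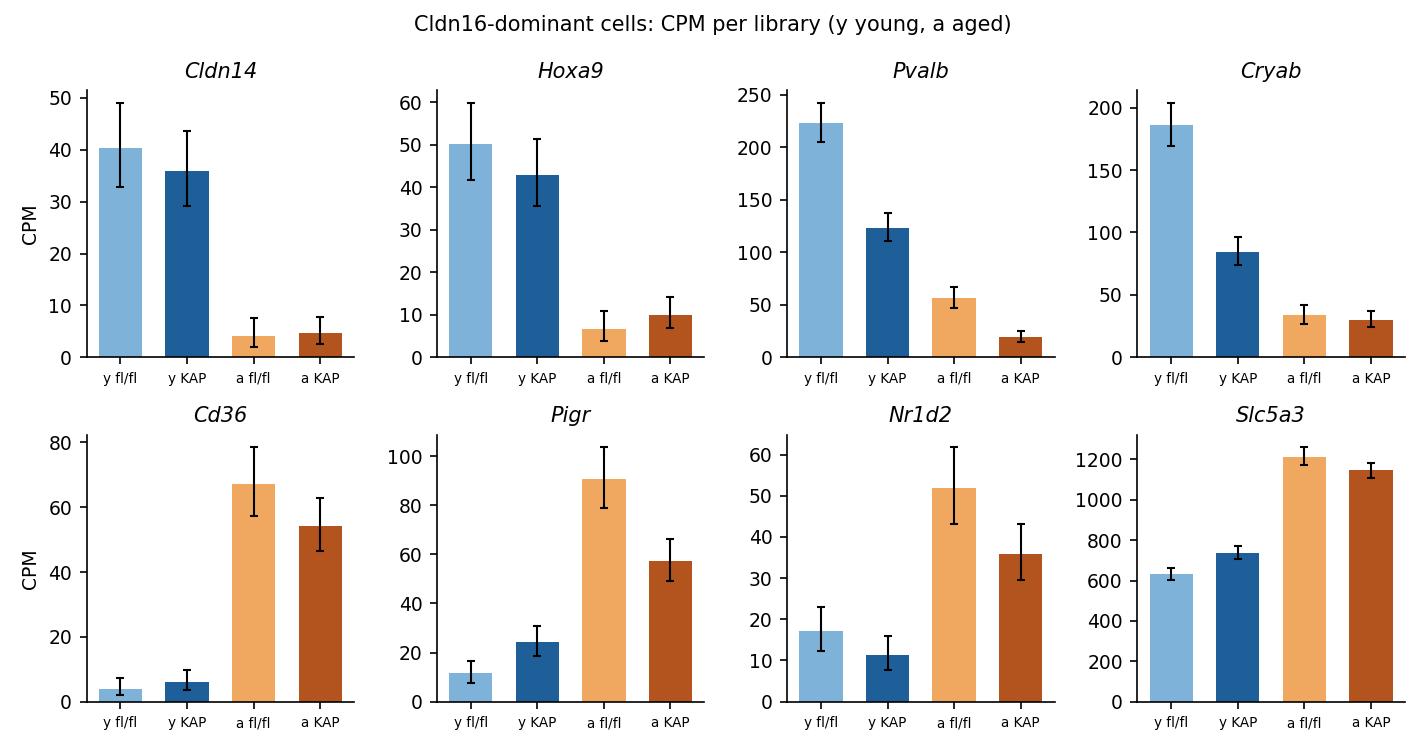
CPM of 8 genes in Cldn16-dominant cells of each library, with exact 95% Poisson intervals as bars; y and a stand for young and aged, fl/fl for Tfebfl/fl and KAP for Tfebfl/fl KAP. The upper row is lower and the lower row higher in both aged libraries, Cldn14 from 40.3 and 35.9 to 4.18 and 4.73 CPM and Cd36 from 3.99 and 6.04 to 67.2 and 54.2 CPM.

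The same libraries give the values of these 21 genes in neighbouring cells. In Cldn10-dominant cells 10 of them passed 2-fold the same way in both pairs and in distal convoluted tubule cells 7, while 20 and 18 of the 21 had the sign seen in members in both pairs. The share of all genes that did so in these populations is not given here, so the counts are a description only. Hoxa9, Nr1d2, Cryab, Pigr and Atp4a passed in both populations. Cd36 was at 14.8, 9.01, 46.4 and 50.5 CPM in Cldn10-dominant cells but at 10.97, 8.85, 9.33 and 9.81 CPM in distal convoluted tubule cells. Cldn14 was at 5.54, 3.95, 0.700 and 1.44 CPM in Cldn10-dominant cells and under 0.5 CPM in each library of distal convoluted tubule cells. Whether the age difference itself differed between populations was not tested.

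Below the 2-fold line, Slc5a3, the myo-inositol cotransporter, was at 632, 738, 1215 and 1146 CPM (log2 ratios 0.94 and 0.63), Mt2, a metallothionein, at 186, 200, 317 and 427 CPM (0.77 and 1.10), and Nr1d1, the relative of Nr1d2, at 40.7, 43.0, 75.6 and 75.9 CPM (0.89 and 0.82). The antimicrobial peptide Defb1 was at 603, 717, 370 and 416 CPM (-0.70 and -0.79) and Col5a2 at 268, 255, 160 and 115 CPM (-0.74 and -1.15). Manf, a chaperone of the endoplasmic reticulum, was at 158, 311, 94.4 and 96.4 CPM (-0.75 and -1.69). For all 6 genes the aged pair lay to 1 side of the young pair. The principal cell water channel Aqp2 also came up among these genes, at 152, 32.7, 38.4 and 20.2 CPM, with all of its young Tfebfl/fl UMIs in 4 cells.

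By list, hormone, kinase and transcriptional control leaned to higher levels in aged members, with 17 of 26 measured genes higher in both pairs and 1 lower (medians 0.21 and 0.23), against 32.5 and 29.6% of all genes higher and lower in both. Ribosomal proteins were higher in both pairs for 27 of 37 genes (0.19 and 0.09) and salt transport for 8 of 13 (0.21 and 0.05), Slc12a1 of the rule among the 8. Nuclear subunits of oxidative phosphorylation were lower in both for 35 of 77 genes and higher for 17 (0.00 and -0.06), and tight junction genes lower for 6 of 9 and higher for 1 (-0.11 and -0.24). The 9 include Cldn10 of the rule, lower in both, and Cldn16, whose ratios were -0.08 and 0.03. With the mean over cells, 13 of 26 genes of hormone, kinase and transcriptional control were higher in both and 2 lower. In cells of at most 20% mitochondrial UMIs, 12 of 29 genes of that list were higher in both and 4 lower (0.10 and 0.37). There, 5 of 13 tight junction genes were lower in both and 1 higher. Of all 6230 genes there, with those of the rule, 2150 were lower in both and 1317 higher. Genes of hypoxia and glycolysis were lower in both for 12 of 20 (-0.08 and -0.18), and heat shock and unfolded protein genes for 10 of 20 (0.00 and -0.42). Of 5 clock genes 3 were higher in both, Nr1d1, Nr1d2 and Tef. Of 29 lysosomal genes and TFEB targets 7 were higher and 6 lower in both, and of 7 measured senescence genes 2 and 2. The time of day of killing was not stated in the methods or labels read.

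Members of Tfebfl/fl KAP and Tfebfl/fl mice were compared last, within each age. Tfeb itself was at 21.1, 18.5, 28.0 and 19.8 CPM in members, with log2 ratios of KAP to Tfebfl/fl of -0.19 in young and -0.50 in aged mice. Both intervals for counting error, -0.77 to 0.39 and -1.02 to 0.02, included 0. Cre is not known to act in these cells, and 3′ counts may include transcripts of a deleted allele, so the gene does not check the labels here.

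Of the same 5465 genes, 10 (0.183%) passed 2-fold the same way at both ages, all lower in Tfebfl/fl KAP, and 2 (0.0366%) in opposite ways. All 10 were among the 58 genes that passed with at most 20% mitochondrial UMIs (27 higher and 31 lower), where 383 and 286 genes passed in the single pairs. In thinned cells 5 of the 10 were among 42 (20 higher and 22 lower), and with the mean over cells 6 were among 8 (2 higher and 6 lower). No gene passed higher without doublets, without cells rich in other markers, without mitochondrial genes, at a mean of at least 50 CPM or with stricter rules for members, where 3 to 13 passed lower. The pairs had a Pearson correlation of 0.239 and a Spearman correlation of 0.157 over genes, and 56.6% of genes had the same sign. Among the genes were the proximal tubule transcripts Kap, Gatm and Gsta3, the collecting duct transcripts Aqp3 and Fxyd4, Igfbp5, Pappa, and the transcripts Gm42418 and AY036118. Kap was at 139, 0, 275 and 125 CPM and Aqp3 at 105, 0, 22.6 and 0.630 CPM. In these genes a few cells carried the level: 5 cells held 93.7, 100 and 100% of Kap UMIs in the libraries that had any, and 99.6% of Aqp3 UMIs in the young Tfebfl/fl library. The 8 principal cell markers summed to 579, 108, 173 and 82.2 CPM in members, most abundant among them Aqp2, and were lower in Tfebfl/fl KAP at both ages as the proximal tubule markers were. Their part in the result was not tested.

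Several of these genes also held a deposited entry of exactly 0 in many cells. Deposited entries of an explicit 0, which the background correction named in the study's methods can leave, were found for Kap in 191, 218, 147 and 205 members and for AY036118 in 11, 128, 93 and 169. Gm42418, at 2238, 164, 3460 and 969 CPM, held such an entry in 0, 199, 17 and 170 members, most of them in the libraries in which it was low. The source of these entries and their part in the differences were not tested. Over all barcodes such entries made up 2.90, 12.5, 9.41 and 12.9% of entries. With the 99 members rich in proximal tubule or principal cell markers left out, 3 of the 10 genes still passed, AY036118, Gm42418 and Igfbp5, and without the Scrublet doublets 4.

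**Figure D5:**
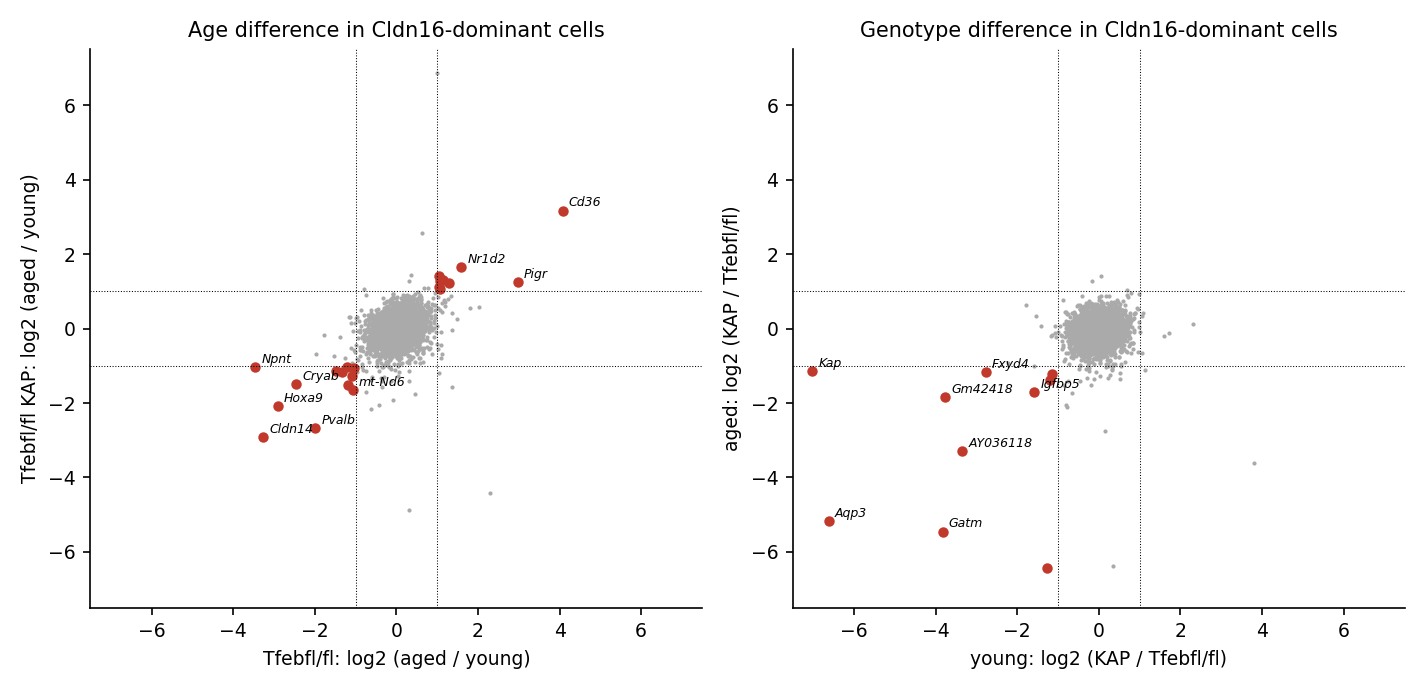
Log2 ratios of CPM in Cldn16-dominant cells, each point a gene with a mean of at least 20 CPM; left, aged against young in Tfebfl/fl (horizontal) and Tfebfl/fl KAP mice (vertical); right, Tfebfl/fl KAP against Tfebfl/fl in young (horizontal) and aged mice (vertical). Dotted lines mark 2-fold, red points the 21 and 10 genes past it the same way in both pairs (most of those past 1.6 in either are named), and a library at 0 is set to 3 counts.

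Among genes of at least 50 CPM that were higher in Tfebfl/fl KAP at both ages, none of them past 2-fold, Ier3, an early response gene, was at 425, 696, 399 and 723 CPM (log2 ratios 0.71 and 0.86), and 1810026B05Rik at 40.7, 70.0, 40.1 and 77.2 CPM (0.78 and 0.94). Tubb4b, a tubulin, was at 103, 168, 58.9 and 110 CPM (0.70 and 0.90), Gadd45g, a stress gene, at 311, 442, 266 and 398 CPM (0.51 and 0.58), and Atf4 at 63.4, 100, 73.1 and 92.3 CPM (0.66 and 0.34). Ier3 had both Tfebfl/fl KAP values above both Tfebfl/fl ones, and so had 1810026B05Rik, Tubb4b, Gadd45g and Atf4. In Cldn10-dominant cells 1810026B05Rik was at 42.2, 42.9, 43.4 and 46.7 CPM. On the other side, Abca13, a lipid transporter, was at 406, 230, 594 and 340 CPM (-0.82 and -0.81), and it was lower in Tfebfl/fl KAP in Cldn10-dominant cells (462, 209, 523 and 267 CPM) and distal convoluted tubule cells (957, 599.6, 1349 and 714 CPM) too.

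Among the lists, interferon genes were lower in Tfebfl/fl KAP at both ages for 5 of 6 measured genes (medians -0.19 and -0.31) and clock genes for 4 of 5 (-0.06 and -0.48). Genes of tubular injury were lower at both ages for 7 of 12 (-0.07 and -0.13) and those of metallothionein and oxidative stress for 10 of 20 (-0.06 and -0.12). Of 20 genes of hypoxia and glycolysis 5 were higher and 3 lower at both ages (0.05 and -0.10). Nuclear subunits of oxidative phosphorylation were higher in Tfebfl/fl KAP at both ages for 43 of 77 genes and lower for 8 (medians 0.14 and 0.04), against 21.0 and 35.6% of all genes. With cells of at most 20% mitochondrial UMIs 29 were higher and 20 lower (0.08 and 0.00), beside 1872 higher and 1688 lower of all 6230 genes, here with those of the rule. Lysosomal genes and TFEB targets were higher for 4 and lower for 10 of 29 (0.02 and -0.17). Immediate early genes went opposite ways over all members. Of these genes, 15 of 16 were higher in young and 13 of 16 lower in aged Tfebfl/fl KAP members, with medians of 0.53 and -0.54. This was not so in members of at most 20% mitochondrial UMIs, where 15 of 17 were higher in young and 12 of 17 higher in aged Tfebfl/fl KAP members (0.76 and 0.29). Fos was at 1205, 1486, 1618 and 993 CPM and Jun at 663, 1128, 810 and 682 CPM. The 2 libraries in the middle of the order were thus the higher ones. The same libraries enter the age comparison, in which the medians of the list were 0.23 and -0.66, and -0.41 and -0.97 in members of at most 20% mitochondrial UMIs.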

How the data were processed

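Single-cell libraries of mouse renal cortex, 1 per condition, were analysed. The authors made the deposited counts with Cell Ranger 6.0.0 on build mm10, and the submitters' notes also name Seurat 4.4.0. The methods name a correction for background RNA, and whether the deposited counts carry it was not established. The deposited counts were whole numbers of UMIs per gene and barcode. No cell annotation was used. Cells were chosen by the thresholds in the text, and doublets were kept in the main results. Counts of each population were summed per library. Genes that differ between populations were tested with edgeR 4.0.16 (quasi-likelihood, TMM scaling, Benjamini-Hochberg adjusted p of 0.05), with the library as a block. The procedure was also tested on simulated data, but the outcome is not given here and supports no call. Conditions, with 1 library each, were compared by CPM ratios without a test. For populations, the named genes were the 12 highest and 12 lowest called genes that differed the same way in 4 libraries. Their mean over both populations was at least 20 CPM. For conditions, they were the 12 genes of at least 50 CPM with the largest smaller ratio each way. Members of the lists were named too. Genes past 2-fold below 50 CPM were named after their values were seen. A library at 0 was set to 3 counts. Members and lists were chosen with earlier results of these data known. The pooled mice of a library cannot be separated, so p-values measure the spread between 4 libraries. DESeq2 1.42.0, the doublet caller of scanpy 1.11.5 and other thresholds were alternatives. Some genes are not reported here. Sequences came from RefSeq.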

Additional observations from a re-analysis of the deposited data

Results flagged for a closer look

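In 5 cases a gene of members passed 2-fold in opposite ways in the separate pairs of libraries, and the difference between the pairs was not tested. Atf3, a stress-induced transcription factor, was at 198, 435, 411 and 192 CPM in the order of libraries used above. Its log2 ratio of aged to young was 1.05 in Tfebfl/fl and -1.18 in Tfebfl/fl KAP members, and its log2 ratio of Tfebfl/fl KAP to Tfebfl/fl was 1.13 in young and -1.10 in aged members. Atf3 UMIs were found in 67, 107, 82 and 82 members. Acsm2, a proximal tubule gene, was at 37.5, 41.9, 95.6 and 14.2 CPM, with log2 ratios of aged to young of 1.35 and -1.56, and 5 cells held 78.7, 53.4, 58.5 and 46.7% of its UMIs. Acta2, smooth muscle actin, was at 15.9, 20.2, 78.5 and 0 CPM, with log2 ratios of aged to young of 2.30 and at most -4.42. Its UMIs lay in 1, 39, 5 and 0 members. S100g, a calcium-binding protein of the distal tubule, was at 26.7, 373, 19.2 and 1.58 CPM, and its log2 ratio of Tfebfl/fl KAP to Tfebfl/fl was 3.80 in young and -3.61 in aged members. Its UMIs lay in 34, 2, 5 and 2 members, so that 2 cells carried the young Tfebfl/fl KAP value.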

How the results depend on the processing

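The share of thick ascending limb cells that were members kept its order, higher in both aged libraries, in every alternative run. It was 6.67, 11.1, 20.5 and 22.7% with at least 3 claudin UMIs, 7.88, 10.8, 21.0 and 21.0% in thinned cells, and 6.49% in the young Tfebfl/fl library with at most 20% mitochondrial UMIs. Against Cldn10-dominant cells, where 1420 genes passed, 422 passed without the library block, 791 with DESeq2, 615 with at most 20% mitochondrial UMIs and 403 in thinned cells. Leaving out 1 library gave 988 to 1132. Age with genotype as a block, over the 4 libraries, was not fitted. Cldn14 and Pvalb did not pass without the block, with adjusted p of 0.0603 and 0.0639 in edgeR. Against distal convoluted tubule cells, where 3771 passed, 1846 did with at most 20% mitochondrial UMIs, 1538 in thinned cells, and 2921 to 3329 when 1 library was left out. Over 112 genes and 1550 alternatives, 1401 values kept direction and call, 109 lost the call, 37 gained it and 3 reversed. The reversed ones were Gcgr in thinned cells (-0.057) and, without cells rich in proximal tubule or principal cell markers, an alternative chosen after seeing the data, Ass1 (0.0095) and Keg1 (0.189).

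Of 21 genes past 2-fold with age, 18 did so without those cells and 19 without doublets. The count was 35 with at most 20% mitochondrial UMIs, with 16 of the 21 among them (not Pigr, mt-Nd6, Klhdc8a, Wbp1l or Zc3h6), 48 in thinned cells, with 11 of the 21 (not Cryab, Hoxc10, Cks2, Dipk1b, Pappa, Atp4a, Wbp1l, Zc3h6, mt-Nd4l or mt-Nd6), 5 at a mean of at least 50 CPM and 75 at 1.5-fold. For the genotype, with 10 genes, it was 58, 42, 4 and 35 in the same settings, 4 without doublets, 5 with at least 3 claudin UMIs, 5 with Slc12a1 and Umod at 80 per 10000 and 3 without cells rich in other markers. The cause was not tested. Of 336 alternative list medians 59 moved by over 0.1. With 150 to 218 members per library, genes near 20 CPM rest on few UMIs, and intervals cover counting error only.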
